A study of Zea mays with 24 samples.

Results

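Protein phosphatase 2C (PP2C) genes were taken from the expression table of 46430 maize genes by their annotation, as those whose name or description holds protein phosphatase 2C or PP2C, or whose name holds protein phosphatase homolog. Of 163 genes matched, 98 reached 0.5 FPKM (fragments per gene length and library depth) in at least 3 of 24 libraries and are described here, and 65 did not, of which 35 were at 0 in every library. The highest mean among these 65 genes was 0.169 FPKM. Just inside this limit were Zm00001d003810, with 3 libraries and a mean of 0.135 FPKM, and Zm00001d039151, with 4 libraries and a mean of 0.168 FPKM. Just outside were Zm00001d007264, with 2 libraries and a mean of 0.169 FPKM, and Zm00001d037014, with 2 libraries and a mean of 0.0687 FPKM. Of the 98 genes, 84 were at 0.5 FPKM or more in all 24 libraries. Going against the label, Zm00001d036031 carries the name protein phosphatase homolog17 but is described as a regulatory A subunit of protein phosphatase 2A, another phosphatase family, and it is kept as the rule found it.

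PP2Cs are serine and threonine phosphatases that act as single proteins and need magnesium or manganese ions. Those of clade A are best known from Arabidopsis as the negative arm of abscisic acid (ABA) signalling: without the hormone they keep SnRK2 kinases dephosphorylated and silent, and with it the PYR/PYL receptors bind ABA, dock on the phosphatase and block it. Genes of clade A PP2Cs are themselves transcribed more under ABA and water shortage in many plants, and other clades act on cell growth, the chloroplast antenna, MAP kinases and pathogen responses.

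The second fully expanded leaf from the top was sequenced from 24 pot-grown plants, 3 in each of 8 groups. Y7-1 is 1 transgenic T4 line of the inbred Y478 (Ye478), with an inserted construct that holds ZmPMP3g behind a CaMV 35S promoter and a Basta resistance gene, so its differences from the wild type Y478 are those of 1 line. Each line was grown under moderate drought-exogenous ABA, moderate drought, control-exogenous ABA and control. Watering was withheld until pot mix moisture was down to 50% for moderate drought, against 70% under control. Exogenous ABA was given as a foliar spray at 15 mg/L, against tap water in the control treatment, and leaves were sampled after 9 days. P-values measure the spread between these plants only.

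The deposited values correspond to 15762667 to 18428177 reads in genes per library, and 1 read of a gene of 1000 bases is worth 0.0502 to 0.0734 FPKM. Leaf identity was checked on lists of 21 mesophyll C4 and 14 bundle sheath genes, whose mean log2(FPKM + 0.5) was 4.85 to 5.62 and 4.31 to 5.34 across the libraries, against 1.69 to 3.32 for 19 genes of dividing cells. Among the Y7-1 libraries, the one labelled replicate 3 of moderate drought went against its line: it had reads in 0 of 125 genes read only in Y7-1 and in 68 of 74 genes read only in Y478, against 107 to 124 and 0 to 5 in the other Y7-1 libraries. None of the PP2C genes is among these genes. It is called the library labelled replicate 3 of Y7-1 moderate drought. Counts of called genes in comparisons whose groups include it are given with it and with it left out. The spread is estimated from all 24 libraries, so it enters the other comparisons too, and their counts without it are given below. Zm00001d024778, which the study names as a ZmPMP3g homolog, does not check the transgene: under control it was at 229 to 342 FPKM in Y7-1 and at 195 to 433 FPKM in Y478.

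In level, the 98 genes had a median of mean FPKM of 8.80, against 4.96 over the 23978 genes tested. Zm00001d044525, described as protein phosphatase 2C 57, was the highest at a mean of 150 FPKM; in Arabidopsis the gene of this name encodes the chloroplast phosphatase that dephosphorylates the light-harvesting antenna. Next were Zm00001d039745, described only as protein phosphatase 2C, at 112 FPKM, Zm00001d012401 (protein phosphatase homolog4) at 70.7 FPKM, Zm00001d038846 (protein phosphatase homolog12, described as protein phosphatase 2C 16) at 53.7 FPKM, and Zm00001d015279 (probable protein phosphatase 2C 59) at 51.7 FPKM. At the low end, 4 genes had a mean under 1 FPKM. FPKM is per length, so these levels can be set beside each other, with the limit that 2 pairs of the genes discussed below lie close together, and whether reads match both genes of a pair was not tested. Zm00001d011131 and Zm00001d011132, both described as protein phosphatase 2C 16, are 21.7 kb apart on the same strand of chromosome 8, and Zm00001d007529 and Zm00001d007530 are 40.0 kb apart on chromosome 2, in the coordinates of the deposited table, whose contigs carry the name B73V4.

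The summed level of the PP2C genes was higher in drought libraries. Summed FPKM over the 98 genes was 1334, 1340 and 1626 in Y7-1 moderate drought-exogenous ABA and 1417, 1558 and 1591 in Y7-1 moderate drought, against 1200, 1248 and 1272 in Y7-1 control-exogenous ABA and 1171, 1218 and 1235 in Y7-1 control. In Y478 the sums were 1876, 2292 and 2533 under moderate drought-exogenous ABA and 1603, 1822 and 2258 under moderate drought, against 1491, 1506 and 1809 under control-exogenous ABA and 1330, 1401 and 1464 under control. The value of 1591 is that of the library labelled replicate 3 of Y7-1 moderate drought. Every drought library lay above every library of its own line and spray without drought. FPKM of all genes summed to 540768 to 975867 across libraries, so the sums also carry this scale. As a share of reads in genes, PP2C genes made up 0.330% to 0.379% and 0.348% to 0.402% in Y7-1 drought with and without ABA. Without drought they made up 0.219% to 0.291% and 0.288% to 0.314%. In Y478 the shares were 0.378% to 0.467% and 0.372% to 0.505%, against 0.281% to 0.343% and 0.298% to 0.310%. In bulk leaf RNA, more cells of a type and more RNA per cell cannot be told apart.

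Genes named as ABA co-receptors were part of this. The 6 genes described with the names of Arabidopsis ABA co-receptors, protein phosphatase 2C 16 (HAB1 in Arabidopsis; 4 genes), 2C 37 (PP2CA, also called AHG3) and ABI2, were grouped after their values had been seen, so their sum is a description. It was 152 to 237 FPKM in Y7-1 moderate drought-exogenous ABA and 194 to 205 FPKM in Y7-1 moderate drought, against 37.3 to 71.2 FPKM in Y7-1 control-exogenous ABA and 67.3 to 93.0 FPKM in Y7-1 control. In Y478 it was 247 to 504 FPKM under moderate drought-exogenous ABA and 189 to 567 FPKM under moderate drought, against 54.8 to 122 FPKM under control-exogenous ABA and 68.7 to 87.5 FPKM under control. These 6 genes made up 11.3% to 25.1% of the summed PP2C level in drought libraries, against 2.99% to 7.63% in libraries without drought. The other 92 genes summed to a mean of 1253 FPKM in Y7-1 moderate drought-exogenous ABA, against 1184 FPKM in Y7-1 control-exogenous ABA, and to 1323 FPKM in Y7-1 moderate drought, against 1129 FPKM in Y7-1 control. In Y478 they summed to a mean of 1841 FPKM under moderate drought-exogenous ABA, against 1517 FPKM under control-exogenous ABA, and to 1524 FPKM under moderate drought, against 1322 FPKM under control. Without ABA in Y7-1, the means of the other 92 genes were thus further apart than those of the 6 genes, 198 FPKM under moderate drought against 79.3 FPKM under control. Both Y7-1 moderate drought means include the library labelled replicate 3, at 1397 FPKM for the 92 genes and 194 FPKM for the 6. The other plants of that group were at 1221 and 1353 FPKM for the 92 genes and 196 and 205 FPKM for the 6.

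**Figure D1:**
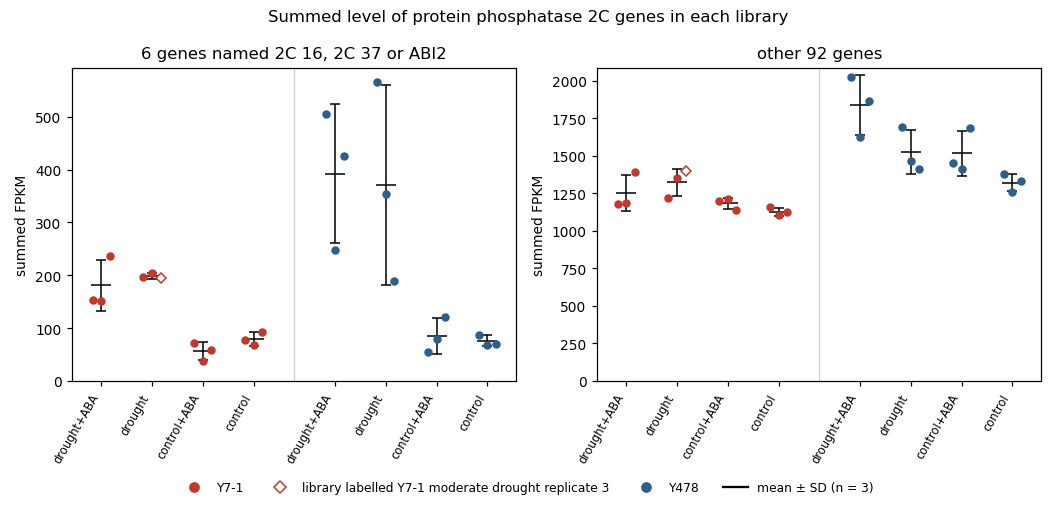
Summed FPKM in each library of the 6 genes named as protein phosphatase 2C 16, 2C 37 or ABI2 (left) and of the other 92 PP2C genes (right), by line and treatment. Points are single plants and bars the mean ± SD (n = 3); in the left panel every drought library is at 152 FPKM or more and every library without drought at 122 FPKM or less.

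Moderate drought was compared with control within each line and spray, 3 plants against 3, by limma on log2(FPKM + 0.5). The spread was estimated over all 24 libraries, with Benjamini-Hochberg adjustment over all genes tested. Fold changes are on the log2(FPKM + 0.5) scale, which understates those of low genes. In Y7-1 with ABA 18 PP2C genes rose and 3 fell at an adjusted p under 0.05, or 18.4% and 3.06% of the genes, where 6.56% of all tested genes rose and 5.19% fell (11.8% in all). In Y478 with ABA 14 rose and 3 fell, against 5.84% and 3.82% of all tested genes (9.66% in all). In Y478 without ABA 10 rose and 4 fell, against 3.34% and 2.64% of all tested genes (5.98% in all). In Y7-1 without ABA 1 rose and 0 fell, against 0.288% and 0.425% of all tested genes (0.713% in all); at an unadjusted p under 0.05 there were 27 genes, and limma-voom on the recovered reads also called 1. Where a change of at least 1 on the log2 scale was asked as well, the study's definition of a differentially expressed gene, 16 PP2C genes remained in Y7-1 with ABA (7.07% of all tested genes), 15 in Y478 with ABA (6.14%), 8 in Y478 without ABA (4.11%) and 1 in Y7-1 without ABA (0.617%).

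The shift was in a tail of genes more than in the family as a whole. The median log2 fold change of the 98 genes was 0.02 in Y7-1 with ABA, 0.14 in Y7-1 without ABA, 0.12 in Y478 with ABA and 0.18 in Y478 without ABA, against 0.01, -0.01, 0.00 and 0.00 over all tested genes. These 4 comparisons share no library. In all 4 the change was positive for 32 of 98 genes and negative for 17, where 16.6% and 16.2% of all tested genes had such a sign. Without the library labelled replicate 3 of Y7-1 moderate drought these were 34 and 15 genes, against 15.5% and 15.7% of all tested genes, and the median in Y7-1 without ABA was 0.15. A set of 5 genes, Zm00001d025055, Zm00001d005609, Zm00001d011131, Zm00001d038846 and Zm00001d044301, rose in all 3 comparisons with more than 1 call, against 0.863% of all tested genes. No PP2C gene fell in all 3 of them, where 0.496% of all tested genes did.

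**Figure D2:**
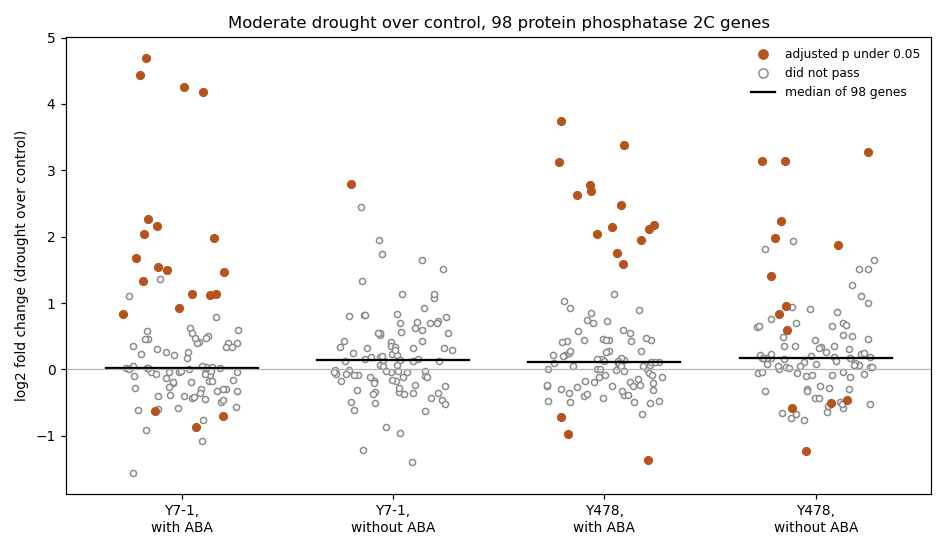
Log2 fold change of moderate drought over control for each of the 98 PP2C genes in Y7-1 with and without ABA and Y478 with and without ABA. Filled points passed an adjusted p under 0.05 (21, 1, 17 and 14 genes) and horizontal lines are medians; the passing genes reach 4.69 in Y7-1 with ABA while the medians lie between 0.02 and 0.18.

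Zm00001d025055 (protein phosphatase homolog11, with no further description; chromosome 10, 101885723 to 101890901, plus strand) had the largest average rise. It was at 16.3, 19.6 and 44.0 FPKM in Y7-1 moderate drought-exogenous ABA, against 2.84, 0.221 and 0.117 FPKM in Y7-1 control-exogenous ABA. It was at 90.1, 48.2 and 84.4 FPKM in Y478 moderate drought-exogenous ABA, against 4.17, 4.08 and 14.9 FPKM in Y478 control-exogenous ABA. Without ABA it was at 83.5, 54.9 and 29.3 FPKM in Y478 moderate drought, against 7.07, 2.64 and 8.07 FPKM in Y478 control. All drought plants were above all others of their line and spray, and the log2 fold changes were 4.44 ± 0.62 (SE; limma adjusted p = 0.00032), 3.38 ± 0.62 (adjusted p = 0.00291) and 3.14 ± 0.62 (adjusted p = 0.00657). In Y7-1 without ABA it was at 19.2, 48.6 and 28.1 FPKM under moderate drought, against 4.38, 5.69 and 5.09 FPKM under control, a difference of 2.45 that did not pass (limma adjusted p = 0.063) and was 2.49 without the library labelled replicate 3 of Y7-1 moderate drought (adjusted p = 0.171).

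Zm00001d028574, described as protein phosphatase 2C 37 (chromosome 1, 39490113 to 39492146, minus strand), was the only PP2C gene called in Y7-1 without ABA. It was at 63.4, 25.4 and 31.2 FPKM in Y7-1 moderate drought, against 7.05, 2.20 and 7.22 FPKM in Y7-1 control, with no overlap. The log2 fold change was 2.79 ± 0.57 (limma adjusted p = 0.0306). The call ended without any of the 3 Y7-1 control plants and without the library labelled replicate 3 of Y7-1 moderate drought (2.91, limma adjusted p = 0.0916). With that library left out, 0 PP2C genes passed, against 0.0834% of all tested genes. With ABA, Zm00001d028574 was at 33.4, 49.6 and 63.0 FPKM in Y7-1 moderate drought-exogenous ABA, against 3.49, 0.802 and 0.70 FPKM in Y7-1 control-exogenous ABA. This was the largest change among the PP2C genes in the 4 drought comparisons, 4.69 ± 0.57 (limma adjusted p = 0.000128). In Y478 it was at 115, 62.4 and 72.5 FPKM under moderate drought-exogenous ABA, against 7.32, 17 and 41.1 FPKM under control-exogenous ABA, a change of 2.18 ± 0.57 (limma adjusted p = 0.0206).

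Of the 4 genes described as protein phosphatase 2C 16, 3 rose in Y478 without ABA. Zm00001d011132 was at 137, 78.3 and 28.3 FPKM in Y478 moderate drought, against 7.54, 4.95 and 7.23 FPKM in Y478 control. The 3 drought plants spread widely yet all lay above the control plants, and the log2 fold change of 3.28 ± 0.44 was the largest of the PP2C genes in Y478 without ABA (limma adjusted p = 0.000662). Its neighbour Zm00001d011131 was at 106, 65.5 and 21.0 FPKM, against 7.14, 4.32 and 5.41 FPKM, with a change of 3.15 ± 0.46 (limma adjusted p = 0.00128). Zm00001d038846 was at 165, 105 and 60.3 FPKM in Y478 moderate drought, against 22.4, 19.4 and 21.4 FPKM in Y478 control, and its change of 2.24 ± 0.36 (limma adjusted p = 0.0022) passed under each of the 15 alternative settings. Replicate 1 was the highest and replicate 3 the lowest of the Y478 moderate drought plants for these 3 genes. In Y7-1 moderate drought-exogenous ABA, Zm00001d038846 was at 37.4, 39.8 and 62.6 FPKM, against 27.0, 11.9 and 26.5 FPKM in Y7-1 control-exogenous ABA, a change of 1.13 ± 0.36 close to the threshold (limma adjusted p = 0.0489). The remaining gene of this description, Zm00001d011202, rose in Y7-1 with ABA by 1.14 ± 0.35 (limma adjusted p = 0.0436), with overlapping groups.

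Zm00001d044301 (protein phosphatase homolog13) is the gene described as protein phosphatase 2C ABI2, in Arabidopsis a co-receptor of ABA. It was at 26.7, 23.0 and 33.6 FPKM in Y7-1 moderate drought-exogenous ABA, against 17.1, 6.96 and 7.30 FPKM in Y7-1 control-exogenous ABA. It was at 66.1, 34.7 and 57.5 FPKM in Y478 moderate drought-exogenous ABA, against 9.02, 9.17 and 16.5 FPKM in Y478 control-exogenous ABA. Its changes, without overlap, were 1.47 ± 0.33 in Y7-1 with ABA (limma adjusted p = 0.0081), 2.15 ± 0.33 in Y478 with ABA (adjusted p = 0.00113) and 1.41 ± 0.33 in Y478 without ABA (adjusted p = 0.018).

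Genes known only as protein phosphatase homologs rose as well. Of 10 such genes, 7 rose in Y7-1 with ABA, 7 in Y478 with ABA and 2 in Y478 without ABA, and the others did not pass. Zm00001d020100 (homolog6) was at 9.14, 14.7 and 13.3 FPKM in Y7-1 moderate drought-exogenous ABA, against 0.375, 0 and 0.273 FPKM in Y7-1 control-exogenous ABA, a change of 4.18 ± 0.60 (limma adjusted p = 0.000412). It was at 52.1, 26.9 and 33.3 FPKM in Y478 moderate drought-exogenous ABA, against 0.928, 0.996 and 9.11 FPKM in Y478 control-exogenous ABA, a change of 3.74 ± 0.60 (limma adjusted p = 0.00149). Zm00001d005609 (homolog7) was at 9.97, 19.1 and 36 FPKM in Y7-1 moderate drought-exogenous ABA, against 0.274, 0.905 and 0.488 FPKM in Y7-1 control-exogenous ABA, a change of 4.26 ± 0.51 (limma adjusted p = 0.000124). The drought plants of both genes lay above all plants without drought of their line and spray. Zm00001d004357 (homolog10), a low gene, was at 6.50, 6.07 and 8.72 FPKM in Y478 moderate drought-exogenous ABA, against 0.526, 0.384 and 2.25 FPKM in Y478 control-exogenous ABA, a change of 2.47 ± 0.49 (limma adjusted p = 0.00427). Zm00001d042886 (homolog3) and Zm00001d012401 (homolog4) rose by 2.26 ± 0.37 and 1.98 ± 0.42 in Y7-1 with ABA (limma adjusted p = 0.00108 and 0.00584). Zm00001d009626 (homolog9) rose by 3.13 ± 0.66 in Y478 with ABA (limma adjusted p = 0.00646).

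**Figure D3:**
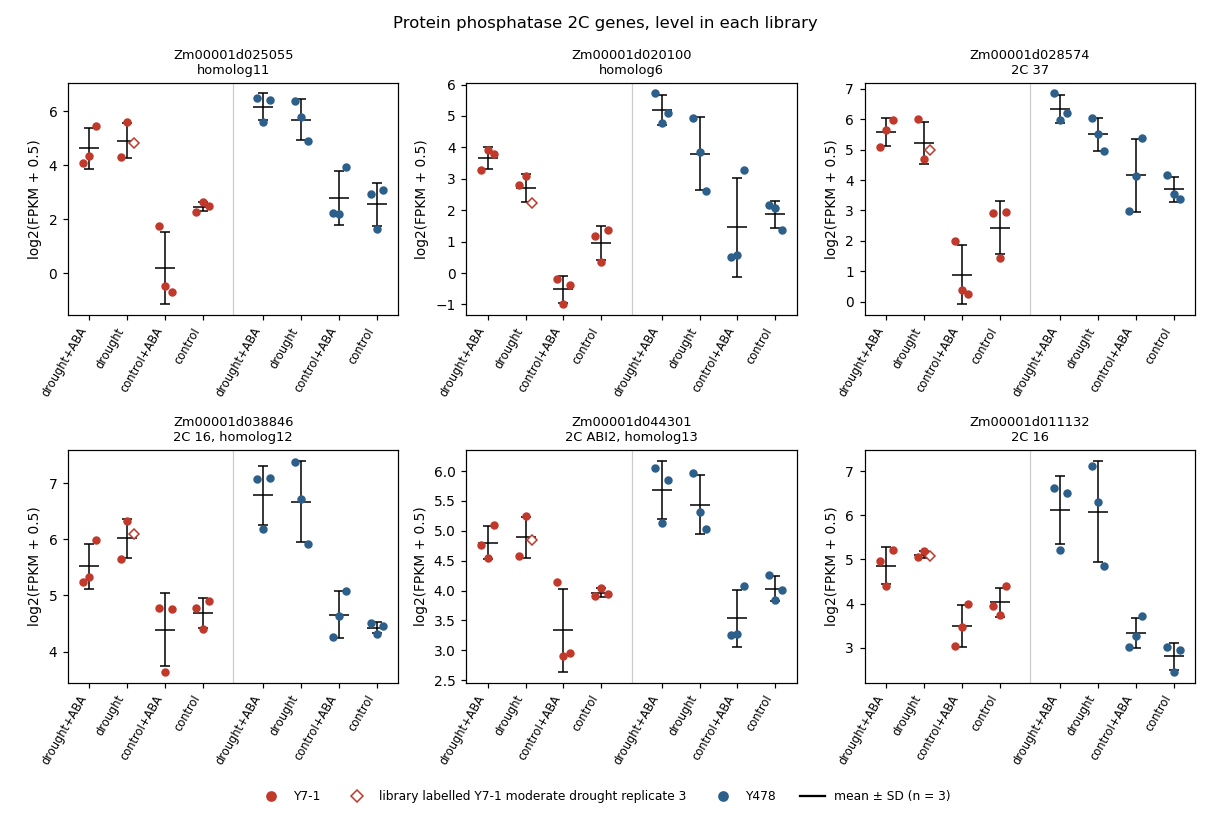
Level, as log2(FPKM + 0.5), of 6 PP2C genes in each library, with Y7-1 left and Y478 right. Points are single plants, bars the mean ± SD (n = 3), and the open diamond is the library labelled replicate 3 of Y7-1 moderate drought; drought groups sit above their controls in both lines, and the 2C 37 gene is lowest in Y7-1 control-exogenous ABA, at 0.70 to 3.49 FPKM.

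Outside these names the rises were fewer. Of 9 genes described as protein phosphatase 2C 48, 1 rose and 1 fell in Y7-1 with ABA, and 1 rose in Y478 with ABA and 1 in Y478 without ABA. Zm00001d013220 was at 12, 10.8 and 16.0 FPKM in Y7-1 moderate drought-exogenous ABA, against 2.68, 3.13 and 8.5 FPKM in Y7-1 control-exogenous ABA (1.5 ± 0.40, limma adjusted p = 0.0214), and it also rose in Y478 with ABA (1.96 ± 0.40, adjusted p = 0.00546). Zm00001d014291 (probable protein phosphatase 2C 71) was at 79.4, 63.8 and 35.6 FPKM in Y478 moderate drought, against 13.6, 14.4 and 13.9 FPKM in Y478 control. It rose by 1.98 ± 0.45 in Y478 without ABA and 2.03 ± 0.45 in Y478 with ABA (limma adjusted p = 0.0163 and 0.00894). Its differences in Y7-1, 0.06 with ABA and 1.13 without ABA, did not pass. Zm00001d028752 (probable protein phosphatase 2C 30) was at 9.90, 12.7 and 16.4 FPKM in Y7-1 moderate drought-exogenous ABA, against 1.98, 3.07 and 3.25 FPKM in Y7-1 control-exogenous ABA, and rose by 2.04 ± 0.41 (limma adjusted p = 0.00412).

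Falls were smaller. Zm00001d016332 (probable protein phosphatase 2C 72) was at 27.7, 26.9 and 29.7 FPKM in Y478 moderate drought, against 68.8, 60.1 and 70.9 FPKM in Y478 control, and fell by 1.23 on the log2 scale (SE 0.25, limma adjusted p = 0.00869), in each of the 15 alternative settings. Zm00001d007529, described as a protein phosphatase 2C family protein, was at 1.12, 1.25 and 0.622 FPKM in Y478 moderate drought-exogenous ABA, against 4.04, 4.42 and 1.95 FPKM in Y478 control-exogenous ABA, and fell by 1.37 (SE 0.29, limma adjusted p = 0.00663). Zm00001d044525, the highest PP2C gene, was at 140, 107 and 82.1 FPKM in Y478 moderate drought-exogenous ABA, against 208, 192 and 238 FPKM in Y478 control-exogenous ABA, and fell by 0.98 (SE 0.23, limma adjusted p = 0.0127). None of these 3 passed in more than 1 of the 4 drought comparisons.

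The counts depended on single plants, also through the shared spread. Without the library labelled replicate 3 of Y7-1 moderate drought, 20 PP2C genes passed in Y7-1 with ABA, where 13.8% of all tested genes did. There were then 21 in Y478 with ABA (11.6% of all tested genes) and 18 in Y478 without ABA (7.4%). In Y478 without ABA, 14 calls became 6, 4 and 7 without Y478 control replicates 1, 2 and 3, became 4 without Y478 moderate drought replicate 1 and became 6 without its replicate 2; in Y7-1 with ABA, 21 calls became 12 without moderate drought-exogenous ABA replicate 1 or 2. Scaling each library to its reads in genes, which moved the median log2 fold change of all tested genes to 0.11 in Y478 without ABA and 0.23 in Y7-1 with ABA, turned 10 rising and 4 falling genes into 17 and 1, and 18 and 3 into 27 and 1; limma-voom gave 9 and 1 in Y478 without ABA, and fits of the compared groups alone ended all 17 calls in Y478 with ABA. Array weights, which give noisier libraries less say, gave 48 in Y478 without ABA (32 up and 16 down, where 31.2% of all tested genes passed), 39 in Y478 with ABA (27 and 12, 35.1%) and 36 in Y7-1 with ABA (24 and 12, 29.5%). These weights lean on single plants. Y478 moderate drought replicate 2 had 4.90, against 0.503 and 0.855 in its group. Y478 control-exogenous ABA replicate 1 had 7.43, against 0.618 and 0.519.

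Averaged over both lines and both sprays, 12 drought plants against 12, 32 PP2C genes rose and 12 fell, against 14.5% and 13.4% of all tested genes (27.9% in all). Without the library labelled replicate 3 of Y7-1 moderate drought these were 30 and 11. The largest were Zm00001d025055 (3.35 ± 0.31, limma adjusted p = 8.79e-07), Zm00001d020100 (2.90 ± 0.30) and Zm00001d028574 (2.87 ± 0.28), and 14 of the rising genes changed by at least 1 on the log2 scale, and none of the falling genes did (5.46% of all tested genes changed as much). With the scaling to reads in genes, 40 rose and 5 fell, at a median of 0.12 over all tested genes.

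Other genes of the ABA pathway were also called under drought, against the shares of all tested genes given above. Of 9 tested PYR/PYL receptors, which bind ABA and inhibit PP2Cs, 1 fell in Y7-1 with ABA, 4 rose in Y478 with ABA and 1 rose in Y478 without ABA, and in the drought average 4 rose and 3 fell. Of 9 SnRK2 kinases, the targets of PP2Cs in Arabidopsis, 2 rose and 1 fell in Y7-1 with ABA, 2 rose and 1 fell in Y478 with ABA, and 2 rose in Y478 without ABA, with 4 higher and 1 lower in the average. Of 9 ABI5/ABF type bZIP factors, which act on ABA-responsive genes, 2 rose in Y7-1 with ABA, 2 rose and 1 fell in Y478 with ABA, 2 rose in Y478 without ABA and 5 rose in the average. Of 8 genes of the NCED step, which commits carotenoids to ABA, 2 rose in Y7-1 with ABA, 3 in Y478 with ABA, 2 in Y478 without ABA and 3 in the average. Among 90 protein phosphatases of other families, 1 rose and 3 fell in Y7-1 with ABA, 6 rose and 7 fell in Y478 with ABA, and 4 rose and 4 fell in Y478 without ABA. Markers of leaf tissues moved with drought in some comparisons and overlapped in others. The mesophyll C4 list was at 4.85 to 5.02 in the drought libraries of Y7-1, against 5.06 to 5.38 in those without drought, and 3 of its 21 genes rose and 3 fell in Y7-1 with ABA. In Y478 without ABA it was at 5.15 to 5.23 under drought, against 5.37 to 5.44 under control. In Y478 with ABA its groups overlapped, at 5.13 to 5.52 against 5.42 to 5.62. The guard cell and stomatal list was at 1.44 to 1.46 in Y7-1 moderate drought-exogenous ABA, against 0.972 to 1.24 in Y7-1 control-exogenous ABA, and 1 of its 11 genes rose. The epidermis and wax list was at 1.66 to 2.44 in Y7-1 moderate drought, against 2.66 to 2.97 in Y7-1 control, and at 1.90 to 2.15 in Y478 moderate drought, against 2.18 to 2.47 in Y478 control; 1 and 3 of its 22 genes fell. The guard cell list overlapped in the other drought comparisons, as at 1.45 to 1.69 in Y478 moderate drought, against 1.49 to 1.67 in Y478 control. With ABA the epidermis list overlapped in both lines, at 2.32 to 3.06 against 2.22 to 2.92 in Y7-1. A phloem transport list was at 3.14 to 3.52 in Y478 moderate drought, against 2.91 to 3.04 in Y478 control, and overlapped elsewhere. The part of these lists in the PP2C changes was not tested.

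Treatments with exogenous ABA were compared with those without it at each water level. No PP2C gene passed with limma or with limma-voom in Y7-1 moderate drought, Y7-1 control, Y478 moderate drought or Y478 control, where 13, 14, 15 and 5 genes had an unadjusted p under 0.05 and 0.163%, 0.0375%, 0.00417% and 0.00417% of all tested genes passed. The average over 12 plants with exogenous ABA and 12 without it gave 0 PP2C genes with both tools, 7 at an unadjusted p under 0.05 and 0.0209% of all tested genes. Without the library labelled replicate 3 of Y7-1 moderate drought no PP2C gene passed with limma in any of these, where 0.00417% to 0.217% of all tested genes passed. With array weights 4 PP2C genes passed in Y7-1 control, 15 in Y478 moderate drought and 21 in Y478 control, where 3.16%, 10.4% and 25.3% of all tested genes passed. In Y7-1 without drought several of the drought-rising genes had lower values with ABA. Zm00001d025055 was at 2.84, 0.221 and 0.117 FPKM in Y7-1 control-exogenous ABA, against 4.38, 5.69 and 5.09 FPKM in Y7-1 control, groups that do not overlap, with a log2 difference of -2.28 ± 0.62 (limma adjusted p = 0.147). Zm00001d012401 was at 38.2, 8.71 and 9.11 FPKM, against 46.8, 38.4 and 44.4 FPKM, a difference of -1.53 ± 0.42 (limma adjusted p = 0.151). Zm00001d034109, another protein phosphatase 2C 48 gene, passed in none of the 4 drought comparisons within a line and spray. It was at 1.32, 1.52 and 3.03 FPKM, against 4.29, 4.40 and 3.47 FPKM, a difference of -0.95 ± 0.21 (limma adjusted p = 0.085). Replicate 1 stood above the other ABA plants for the first 2 of these genes, and both passed without it; Zm00001d034109 passed without replicate 3. Under drought, Zm00001d005609 was at 46.8, 27.2 and 47.3 FPKM in Y478 moderate drought-exogenous ABA, against 22.0, 13.4 and 6.39 FPKM in Y478 moderate drought, a difference of 1.62 ± 0.51 without overlap (limma adjusted p = 0.328).

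Y7-1 was compared with Y478 under each treatment, and in both ABA treatments more PP2C genes were lower than higher in Y7-1. With both drought and exogenous ABA 8 were higher and 19 lower, against 13.8% and 14.3% of all tested genes (28.1% in all). Under control-exogenous ABA 4 were higher and 19 lower, against 10.5% and 11.5% of all tested genes (22% in all). Under control 6 were higher and 6 lower, against 5.63% and 6.57% of all tested genes (12.2% in all), and each of the 6 plants left out in turn gave 3 to 7 in place of 12. Under moderate drought 0 passed with limma and 0 with limma-voom, 17 had an unadjusted p under 0.05, and 1.16% of all tested genes passed. Without the library labelled replicate 3 of Y7-1 moderate drought that comparison gave 3 higher and 11 lower PP2C genes, where 12.8% of all tested genes passed in either direction. Without Y478 moderate drought replicate 3 it gave 5. With a change of at least 1 asked as well, 19 PP2C genes remained under moderate drought-exogenous ABA (18% of all tested genes), 15 under control-exogenous ABA (14.9%) and 5 under control (9.12%). By adjusted p alone, the other 3 counts also moved without the library labelled replicate 3 of Y7-1 moderate drought. They were 28 under moderate drought-exogenous ABA (30.7% of all tested genes), 28 under control-exogenous ABA (24.8%) and 14 under control (15.1%).

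The median log2 fold change of the 98 genes was -0.22 under moderate drought-exogenous ABA, -0.16 under moderate drought, -0.13 under control-exogenous ABA and -0.03 under control, against 0.00, -0.01, 0.02 and 0.02 over all tested genes. With the scaling to reads in genes, whose median over all tested genes was 0.20 under moderate drought-exogenous ABA and 0.18 under control, the counts were 10 higher and 13 lower and 8 higher and 3 lower, so that under control more genes were then higher than lower. These comparisons share no library with each other. The difference was negative in all 4 treatments for 36 genes and positive in all 4 for 16, where 25.3% and 26% of all tested genes had such a sign. Without the library labelled replicate 3 of Y7-1 moderate drought these were 36 and 18 genes, against 26.4% and 27.5%, and the median under moderate drought was -0.17. In the average over 12 plants of each line, 14 genes were higher and 37 lower in Y7-1, against 24.6% and 24.3% of all tested genes (48.9% in all), and 11 differed by at least 1 (14.7%); the counts were 16 and 38 without the library labelled replicate 3 of Y7-1 moderate drought, and 21 and 24 with the scaling to reads in genes, at a median of 0.13 over all tested genes.

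**Figure D4:**
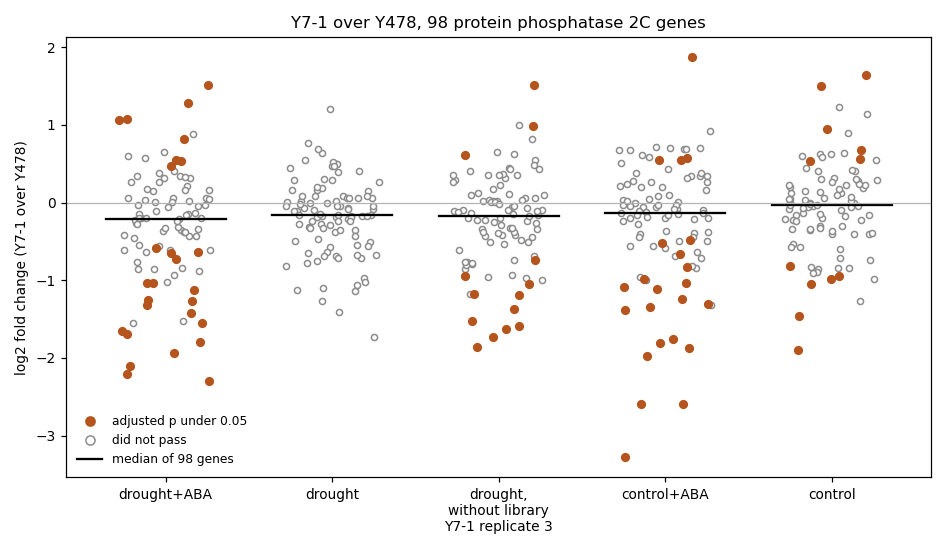
Log2 fold change of Y7-1 over Y478 for each of the 98 PP2C genes under each treatment, with moderate drought shown with all libraries and without the library labelled replicate 3 of Y7-1 moderate drought. Filled points passed an adjusted p under 0.05 (27, 0, 14, 23 and 12 genes from left to right) and lines are medians; the passing genes are mostly below 0 except under control, where 6 lie on each side.

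A set of 3 genes was lower in Y7-1 in all 3 comparisons with calls, Zm00001d037949, Zm00001d016332 and Zm00001d036710, against 3.73% of all tested genes, and none was higher in all 3, against 2.64%. Zm00001d037949 (probable protein phosphatase 2C 73; chromosome 6, 143243175 to 143246248, plus strand) was at 24.3, 25.4 and 16.7 FPKM in Y7-1, against 93.1, 108 and 129 FPKM in Y478, under moderate drought-exogenous ABA. It was at 16.5, 18.2 and 14.9 FPKM in Y7-1, against 59.2, 53.0 and 58.6 FPKM in Y478, under control-exogenous ABA. Under control it was at 19.9, 11.8 and 14.5 FPKM in Y7-1, against 78.9, 49.3 and 49.3 FPKM in Y478. No groups overlapped, and the log2 fold changes were -2.30 ± 0.32 (limma adjusted p = 0.000299), -1.76 ± 0.32 (adjusted p = 0.00108) and -1.90 ± 0.32 (adjusted p = 0.00108), past the threshold in each of the 15 alternative settings. In moderate drought plants the values were 23.6, 23.9 and 67.8 FPKM in Y7-1, the last in the library labelled replicate 3, against 90.2, 52.5 and 69.3 FPKM in Y478. The difference there was -1.02 with that library (limma adjusted p = 0.104) and -1.52 ± 0.26 without it (adjusted p = 0.000785).

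Zm00001d016332, which fell with drought in Y478, was at 26.3, 33.8 and 41.4 FPKM in Y7-1 control, against 68.8, 60.1 and 70.9 FPKM in Y478 control. The difference was -0.99 ± 0.25 there (limma adjusted p = 0.016) and -1.12 ± 0.25 under control-exogenous ABA (adjusted p = 0.00441), with no overlap. Zm00001d036710 (probable protein phosphatase 2C 21) was at 8.15, 10.2 and 10.3 FPKM in Y7-1 control, against 16.7, 15.9 and 18.7 FPKM in Y478 control. Its difference was -0.82 ± 0.25 (limma adjusted p = 0.043), and it passed in all 15 alternative settings under control-exogenous ABA only. Zm00001d007050 (probable protein phosphatase 2C 35), a low gene, was at 0, 0 and 0.847 FPKM in Y7-1 moderate drought-exogenous ABA, against 1.92, 1.63 and 3.20 FPKM in Y478 (-1.94 ± 0.45, limma adjusted p = 0.00451).

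Under control-exogenous ABA the largest line differences were in genes that rose with drought. Zm00001d028574 was at 3.49, 0.802 and 0.70 FPKM in Y7-1, against 7.32, 17 and 41.1 FPKM in Y478, a difference of -3.28 ± 0.57 (limma adjusted p = 0.000731). Zm00001d025055 was at 2.84, 0.221 and 0.117 FPKM in Y7-1, against 4.17, 4.08 and 14.9 FPKM in Y478, a difference of -2.60 ± 0.62 (limma adjusted p = 0.00599). Zm00001d005609 was at 0.274, 0.905 and 0.488 FPKM in Y7-1, against 4.15, 4.23 and 10.2 FPKM in Y478, a difference of -2.59 ± 0.51 (limma adjusted p = 0.00168). None of the groups overlapped. The same Y7-1 libraries are the baseline of the drought comparison in Y7-1 with ABA, so these low values enter both. Y478 control-exogenous ABA replicate 3 was the highest plant of its group for these genes and 9.11 FPKM against 0.928 and 0.996 FPKM for Zm00001d020100, and without it 14 genes in place of 23 passed. Zm00001d028752 was at 1.98, 3.07 and 3.25 FPKM in Y7-1, against 8.68, 11 and 15.0 FPKM in Y478, and its difference of -1.87 ± 0.41 (limma adjusted p = 0.00358) passed in all 15 alternative settings.

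Under moderate drought-exogenous ABA, Zm00001d039745, the PP2C gene with the highest mean after Zm00001d044525, was at 55.9, 7.44 and 70.1 FPKM in Y7-1, against 147, 150 and 139 FPKM in Y478 (-2.21 ± 0.53, limma adjusted p = 0.00567). Replicate 2 of Y7-1 was far below the other plants. Zm00001d026269 (probable protein phosphatase 2C 9) was at 14.9, 14.5 and 15.5 FPKM in Y7-1, against 52.0, 37.5 and 76.1 FPKM in Y478 (-1.79 ± 0.36, limma adjusted p = 0.00192). Zm00001d014291 was at 19.3, 13.7 and 24.6 FPKM in Y7-1, against 80.0, 37.5 and 77.8 FPKM in Y478 (-1.69 ± 0.45, limma adjusted p = 0.0104). Zm00001d004357 was at 0.825, 1.03 and 2.12 FPKM in Y7-1, against 6.50, 6.07 and 8.72 FPKM in Y478 (-2.11 ± 0.49, limma adjusted p = 0.0045). Without Y478 moderate drought-exogenous ABA replicate 3, 16 genes in place of 27 passed, and Zm00001d011131 and Zm00001d011132 (-1.32 ± 0.46 and -1.26 ± 0.44) passed in 7 of 15 alternative settings each.

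Higher in Y7-1 were fewer genes. Zm00001d052852 (probable protein phosphatase 2C 6) was at 1.55, 4.11 and 4.40 FPKM in Y7-1 control-exogenous ABA, against 0.335, 0.264 and 0.983 FPKM in Y478 control-exogenous ABA (1.87 ± 0.38, limma adjusted p = 0.00225). It was at 1.53, 3.21 and 2.65 FPKM in Y7-1 control, against 0.507, 0.512 and 0.276 FPKM in Y478 control (1.64 ± 0.38, limma adjusted p = 0.0095). These groups do not overlap, but the levels are low. Zm00001d016474 (probable protein phosphatase 2C 74) was at 60.0, 67.6 and 82.9 FPKM in Y7-1 moderate drought-exogenous ABA, against 38.8, 25.6 and 22.9 FPKM in Y478 (1.28 ± 0.24, limma adjusted p = 0.00137), and it was also higher in Y7-1 under control (0.95 ± 0.24, adjusted p = 0.0156). Zm00001d007529 was at 3.13, 4.07 and 4.01 FPKM in Y7-1 moderate drought-exogenous ABA, against 1.12, 1.25 and 0.622 FPKM in Y478 (1.52 ± 0.29, limma adjusted p = 0.0014). Its neighbour Zm00001d007530 was at 11.9, 13.9 and 6.50 FPKM in Y7-1 moderate drought, against 2.88, 4.31 and 5.72 FPKM in Y478 moderate drought. Its difference was 1.21 with all libraries (limma adjusted p = 0.0576) and 1.52 ± 0.31 without the library labelled replicate 3 (adjusted p = 0.00357).

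**Figure D5:**
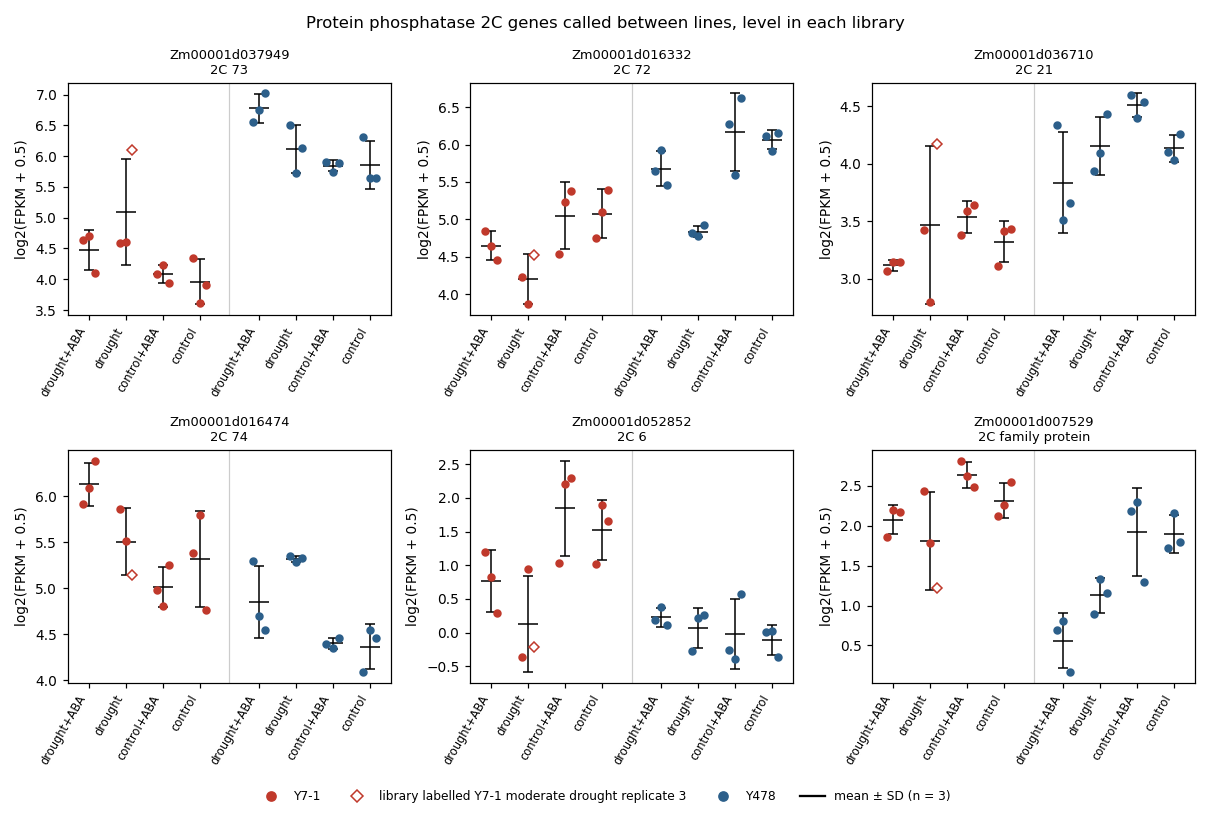
Level, as log2(FPKM + 0.5), in each library of 3 PP2C genes lower (top row) and 3 higher (bottom row) in Y7-1, with Y7-1 left and Y478 right. Points are single plants, bars the mean ± SD (n = 3), and the open diamond is the library labelled replicate 3 of Y7-1 moderate drought, which for the 2C 73 gene lies at 67.8 FPKM, within the Y478 moderate drought values of 52.5 to 90.2 FPKM.

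Other values differed between the lines in the same comparisons. The bundle sheath list was at 4.33 to 4.54 in Y7-1 moderate drought-exogenous ABA, against 4.94 to 5.32 in Y478, and at 4.40 to 4.62 in Y7-1 control, against 4.87 to 5.00 in Y478. The mesophyll C4 list was at 5.07 to 5.19 in Y7-1 control, against 5.37 to 5.44 in Y478. Both lists were lower in Y7-1 without overlap under all 4 treatments. The epidermis and wax list was higher in Y7-1 control, at 2.66 to 2.97 against 2.18 to 2.47, and overlapped under the other treatments. The guard cell and stomatal list was at 0.972 to 1.24 in Y7-1 control-exogenous ABA, against 1.5 to 1.83 in Y478, and 1 of its 11 genes was higher and 3 were lower. Under moderate drought-exogenous ABA it was at 1.44 to 1.46, against 1.68 to 1.97. The phloem transport list was at 3.14 to 3.28 there, against 3.50 to 3.74 in Y478, and at 3.06 to 3.51 in Y7-1 control, against 2.91 to 3.04. Their part in the PP2C differences was not tested. Of 90 other protein phosphatases under moderate drought-exogenous ABA, 11 were higher and 7 lower in Y7-1, with 9 and 6 under control-exogenous ABA and 8 and 2 under control.

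Whether drought changed PP2C genes differently in Y7-1 and Y478 was tested by the interaction of line and water. No PP2C gene passed with limma or limma-voom, without or with ABA, where 10 and 11 genes had an unadjusted p under 0.05 and 0.00834% and 0.0292% of all tested genes passed. Without the library labelled replicate 3 of Y7-1 moderate drought none passed with limma either, against 0.00417% and 0.192% of all tested genes. The largest differences without ABA were in the neighbours Zm00001d011131 and Zm00001d011132. Zm00001d011132 was at 32.8, 36 and 33.4 FPKM in Y7-1 moderate drought, against 15.0, 12.9 and 20.4 FPKM in Y7-1 control, while its Y478 values are those given above. The interactions were -2.20 ± 0.62 for Zm00001d011132 and -2.35 ± 0.65 for Zm00001d011131 (limma adjusted p = 0.369 for both). Without the library labelled replicate 3 of Y7-1 moderate drought they were -2.19 (adjusted p = 0.376) and -2.48 (adjusted p = 0.341). Both passed without Y478 moderate drought replicate 3, at -2.82 (adjusted p = 0.0382) and -3.00 (adjusted p = 0.0353). With ABA the largest was that of Zm00001d028574, 2.51 ± 0.81 (limma adjusted p = 0.278), and that of Zm00001d014291 was -1.98 ± 0.64 (adjusted p = 0.28). Array weights called 3 PP2C genes there, where 4.68% of all tested genes passed.

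Of the 98 genes, 43 passed in none of the 12 comparisons within a line or a treatment, as did 50.6% of all tested genes.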

How the data were processed

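Leaf RNA libraries of 24 plants were compared, grouped by the labels of the deposit into 2 lines and 4 treatments with 3 plants each. The authors deposited FPKM values per gene and plant; per the submitters' processing notes HISAT2 2.0.5 was used, and the counter is not given in the sources used here (the labels' extraction text describes another tissue). The maize genome build appears only in contig names of the deposited values, which begin with B73V4. Multiplied by gene length and scaled, every FPKM came within 0.05 of a whole read (100%), and these reads served for limma-voom. Genes at 0.5 FPKM or more in at least 3 libraries (23978) were fitted as log2(FPKM + 0.5) with a mean per group in limma 3.58.1 (R 4.3.3; moderated variances with a trend on the mean), two-sided, with Benjamini-Hochberg adjustment over all of them; a gene was called at an adjusted p under 0.05. Tables and figures were made in Python 3.11.15 with pandas 2.3.3 and matplotlib 3.10.9. The fit was tested on simulated data.

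The PP2C genes, the other lists and the tests were chosen with earlier results of these data known. Genes were named by a rule: those whose name or description gives an ABA co-receptor such as ABI2, up to 6 called genes of largest change per comparison, the 5 highest by mean FPKM, genes called in both directions across comparisons, and Zm00001d005609 and Zm00001d004357, which the study lists; others named in the text were chosen after their values were seen. Some genes that the rule names are left out, and its part on a protein motif, like promoter motifs, was not analysed here. Alternatives were a pseudocount of 1, no filter on low values, fits of the compared groups alone, quantile normalization, array weights, limma-voom, a replicate block, each plant left out and, chosen after seeing the data, scaling to reads in genes and leaving out the library labelled replicate 3 of Y7-1 moderate drought from comparisons that do not use it.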

Additional observations from a re-analysis of the deposited data

How the results depend on the processing

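Over 17 counts of PP2C genes called and 133 recomputed values with a changed setting, 107 stayed within 1.5 times the count reported. The counts for ABA, for the interactions and between lines under moderate drought were 0, and each 0 that stayed 0 is among the 107. That number therefore does not measure how stable the counts above 0 were. Array weights, which give noisier libraries less say but here lean on single plants, gave the following counts, with the share of all tested genes that passed in brackets. For drought they were 36 in Y7-1 with ABA (29.5%), 0 in Y7-1 without ABA (0.00834%), 39 in Y478 with ABA (35.1%) and 48 in Y478 without ABA (31.2%). For ABA they were 4 in Y7-1 control (3.16%), 15 in Y478 moderate drought (10.4%), 21 in Y478 control (25.3%) and 4 in the average (5.72%). Between lines they were 41 under moderate drought-exogenous ABA (41.8%), 9 under moderate drought (10.8%), 40 under control-exogenous ABA (44.3%) and 22 under control (25.1%). The interaction with ABA gave 3 (4.68%). Fits of the compared groups alone, with fewer plants behind the spread, gave 5, 0, 0 and 8 for drought in the same order and 6 between lines under control-exogenous ABA. Without the filter the lines under control gave 7. Scaling to reads in genes gave 2 for drought in Y7-1 without ABA, 2 for ABA in Y7-1 control, 2 in the average for ABA and 1 between lines under moderate drought; quantile normalization gave 2 and 1 for the first and the last of these.

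The replicate block gave 2 for drought in Y7-1 without ABA, against 1, and moved no other count by over 1.5 times. Deviations from the group means in plants of the same number correlated at -0.238 to 0.318 (median 0.00135, over 84 pairs), against -0.348 to 0.339 for different numbers. No pairing by number was used in the main fit, and these values cannot exclude a batch shared by some plants of the same number.

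Leaving out 1 plant at a time gave 12 to 21 calls in Y7-1 with ABA, 0 to 8 in Y7-1 without ABA, 12 to 21 in Y478 with ABA, 4 to 18 in Y478 without ABA and 37 to 46 in the average for drought; 16 to 29, 0 to 14, 14 to 28, 3 to 14 and 47 to 54 between lines under moderate drought-exogenous ABA, moderate drought, control-exogenous ABA, control and on average; 0 to 1 and 0 to 2 for ABA in Y7-1 moderate drought and Y7-1 control; and 0 to 2 for the interaction without ABA. Under control between lines each of the 6 plants left out gave 3 to 7, and under moderate drought Y478 replicate 3 left out gave 5. ABA in Y7-1 moderate drought gave 1 without replicate 1. The 8 calls for drought in Y7-1 without ABA came without moderate drought replicate 1, with the library labelled replicate 3 kept. Of 37 named changes and 554 recomputed values, 490 kept direction and call, 64 kept direction only and 0 reversed; 17 of the 64 came with the compared groups alone. With 3 plants a group and a median standard error of 0.26 on the log2 scale over the 98 genes, changes under about 1 often could not pass, and genes near 0.5 FPKM rest on few reads.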
